A study of Mus musculus with 4 samples.

Results

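Rps4l, Rps4x, Rpl39l, Rpl22l1 and Rpl22 encode ribosomal proteins or close copies of them, and were followed here in epidermal keratinocytes that had lost 3 H3K9me3 methyltransferases. All 5 listed symbols were found among the 56980 genes of the count matrices. They were chosen by earlier results of these same data, in which Rps4l was higher in the mutant, so every difference between genotypes given for the 5 genes is a description given without a p-value, and calls among them are counted only to set them beside the background. Rpl39, the parent gene of Rpl39l, is shown beside it although it was not on the list.

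The ribosome is built from ribosomal RNA and a set of proteins that belong to a small subunit (Rps genes) and a large subunit (Rpl genes). Most of these proteins are encoded by 1 active gene each, and all dividing cells make them in large amounts. A few have a paralog, a second gene for nearly the same protein, often made when a spliced messenger RNA was copied back into the genome. Such a copy has no introns and lands far from the promoter of its parent. Rpl39l is best known from male germ cells, and the level of Rpl22l1 is known to rise where Rpl22 is lost. H3K9me3 is a histone mark of silent chromatin, and Suv39h1, Suv39h2 and Setdb1 are enzymes that place it.

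The 4 libraries were single-cell RNA-seq of Epcam+ α6+ cells sorted from dorsal skin of mouse embryos at E16.5, 1 embryo per library. Ctrl embryos (2 libraries) carried floxed alleles of Setdb1 (labelled Setdb1 f/f) and of Suv39h1 (labelled Suv39h1 f/f). They lacked Suv39h2 from the germ line (Suv39h2-/-) and had no Cre (K14CreERT2-). TKO embryos (2 libraries) had the same alleles together with K14CreERT2+, a recombinase driven by the promoter of basal keratinocyte keratin 14 that works only in the presence of tamoxifen. Both groups received Tamoxifen, and both lacked Suv39h2. By the labels the contrast is thus the loss of Suv39h1 and Setdb1 on that background together with the presence of the Cre, which cannot be told apart. The study describes the TKO embryos used for single cells as mosaic, which means that some of their keratinocytes kept the floxed alleles.

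The matrices held 3804 to 5785 barcodes and 70749496 to 89655247 UMIs per library. A UMI is a molecular tag, so each counted molecule is read once whatever the length of its transcript. After filters, 10764 of 19789 cells were kept, and between 1565 and 2966 cells per library were keratinocytes. Keratinocytes were deeper in TKO, with medians of 30073 and 28052 UMIs per cell against 22047 and 17376.5 in Ctrl. Clusters were named from marker genes as basal-like, differentiating-like or hair follicle-like, and every library also held fibroblast-like and immune-like cells, although the labels call all sorted cells basal epithelial cells. No 2 libraries shared more than 12 barcodes. Setdb1 was at 67.7 and 58.3 CPM (the UMIs of the gene scaled to the total of the summed cells) in Ctrl and at 39.5 and 42.4 in TKO (log2 change -0.64, SE 0.126, adjusted p = 0.0474). Suv39h1 was at 24.5 and 25.4 CPM in Ctrl and 24.9 and 20.1 in TKO (adjusted p = 0.469). Suv39h2 was at 14.02 and 17.2 CPM in Ctrl and 22.6 and 16.2 in TKO (adjusted p = 0.407), although both genotypes are labelled as lacking it. Counts from the 3′ end of a gene do not read whether an exon was deleted, so they do not check these alleles. All 4 embryos had UMIs of 4 Y-linked genes and at most 8 of Xist, so the X-linked genes Rps4x and Rpl39 were compared between embryos of 1 sex. The methods of the study state that both sexes were included in each group of its sequencing experiments, which these counts do not show.

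Rps4l carries the main difference, and its sequence shows how it can be told from Rps4x. Rps4l lies on chromosome 6 (GRCm39, chr6:148256098-148257431, plus strand) in 1 exon, inside an intron of Tmtc1, a gene of the opposite strand, and overlaps no exon of it. GENCODE lists it as protein coding, whereas the RefSeq gene table lists it as a transcribed pseudogene. Rps4x, which encodes a protein of the small subunit, lies on the X chromosome (chrX:101228542-101233014, minus strand) and has 7 exons. The coding sequence of Rps4l was 786 bases and that of Rps4x 789, and 80.0% of the aligned bases were identical. The last stretch of the coding sequences is printed to show where the copies differ. The transcripts are longer than their coding sequences (1334 bases for Rps4l and 990 for Rps4x). These libraries read the 3′ end of transcripts, so the counted reads may lie outside the printed stretch. Capitals mark the 17 aligned columns at which the copies differ, 3 of them a gap in Rps4l.

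Rps4l: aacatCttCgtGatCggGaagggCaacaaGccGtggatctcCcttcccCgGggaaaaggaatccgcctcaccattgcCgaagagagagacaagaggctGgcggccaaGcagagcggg
Rps4x: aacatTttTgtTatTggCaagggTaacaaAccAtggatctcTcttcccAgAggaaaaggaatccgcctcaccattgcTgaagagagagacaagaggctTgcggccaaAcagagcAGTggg

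The differences were spread through the stretch, so a read of ordinary length that falls in it covers several of them. Of 13 windows of 100 bases tiled over the last 400 bases of the transcript, 0 of Rps4l were found elsewhere in the genome, against 4 of Rps4x and 4 of Rpl22l1. The corresponding counts were 0 for Rpl39l, Rpl39 and Rpl22. The levels of Rps4x and Rpl22l1 may therefore miss reads that a second locus shares. Strand is kept by the 3′ kit, so reads of Tmtc1 come from the opposite strand.

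The promoters of this pair are printed because a local alignment found a similar stretch in both. The sequences were read from the GRCm39 genome, from 250 bases before the start that GENCODE gives for each transcript to 50 bases after it (Rps4l, chr6:148255848-148256147, plus strand, and Rps4x, chrX:101232965-101233264, minus strand). Capitals mark the bases that are identical in the best local alignment of this pair.

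Rps4l promoter: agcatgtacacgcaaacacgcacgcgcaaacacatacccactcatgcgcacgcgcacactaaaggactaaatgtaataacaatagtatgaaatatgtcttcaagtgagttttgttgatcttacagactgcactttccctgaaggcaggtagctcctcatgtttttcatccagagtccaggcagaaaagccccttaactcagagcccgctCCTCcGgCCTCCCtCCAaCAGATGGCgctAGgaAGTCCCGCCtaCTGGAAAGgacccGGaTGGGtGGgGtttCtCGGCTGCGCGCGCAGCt
Rps4x promoter: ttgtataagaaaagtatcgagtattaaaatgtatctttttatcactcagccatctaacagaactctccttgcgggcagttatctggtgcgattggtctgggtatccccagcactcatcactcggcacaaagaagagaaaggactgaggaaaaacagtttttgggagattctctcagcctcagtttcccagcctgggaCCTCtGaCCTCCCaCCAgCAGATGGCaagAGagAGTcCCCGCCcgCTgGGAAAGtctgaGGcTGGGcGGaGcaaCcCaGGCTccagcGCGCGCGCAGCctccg

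The alignment ran over 98 columns, of which 67 (68.4%) were identical. It covered bases -41 to 49 around the start of Rps4l and -53 to 45 around the start of Rps4x. GC content was 52.3% in the Rps4l promoter and 53.0% in that of Rps4x, near the median of 52.3% over 21757 promoters. The Rps4l promoter held 16 CpG sites and that of Rps4x 12, above the median of 8. Neither held TATAAA on either strand, which 13.7% of all promoters did, nor the ETS motif CCGGAAG, which 8.7% did. Neither held the YY1 motif AAGATGG (5.8% of all promoters) or the NRF1 motif (1.0%) on either strand. The 4 motifs do not overlap one another. A pyrimidine run of 5 or more bases at the start is common at ribosomal protein genes and stood at 5.7% of all promoters. That of Rps4l was 2 bases long and that of Rps4x 0, and these matches describe letters only.

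Rps4l was several-fold higher in both TKO libraries than in both Ctrl libraries. In keratinocytes, 7588 and 6474 Rps4l UMIs were counted in Ctrl and 25017 and 27097 in TKO. This gave 112 and 114 CPM in Ctrl and 476 and 502 CPM in TKO, with means of 113 ± 1.14 and 489 ± 18.8 CPM (SD, n = 2 libraries each). The genotypes did not overlap. The log2 change was 2.10 (SE 0.101), a fold of 4.28. Of the 4 members with enough UMIs to be fitted, 1 (Rps4l) passed an adjusted p of 0.05, where 6.09% of all genes tested passed. Nothing is read from that count, since this contrast chose the genes.

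The increase was seen in every class of keratinocyte. In basal-like cells Rps4l was at 96.2 and 98.9 CPM in Ctrl and 467 and 477 in TKO (log2 change 2.28, SE 0.102). In differentiating-like cells it was at 138 and 151 CPM in Ctrl and 467 and 558 in TKO (log2 change 1.75, SE 0.147). In hair follicle-like cells it was at 107 and 112 CPM in Ctrl and 514 and 497 in TKO (log2 change 2.26, SE 0.10). The genotypes did not overlap in any of the 3 classes, and TKO library 1 of the differentiating-like class was the lower of its pair. In each class 1 member of 4 (Rps4l) passed that threshold, beside 11.8% of all genes in basal-like, 1.35% in differentiating-like and 12.6% in hair follicle-like cells, and nothing is read from these counts either, since the gene was chosen for this difference. Without 1 library at a time the log2 change in all keratinocytes lay between 2.04 and 2.17. Of the 3 classes, the differentiating-like one gave the smallest value without 1 library, 1.57.

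**Figure D1:**
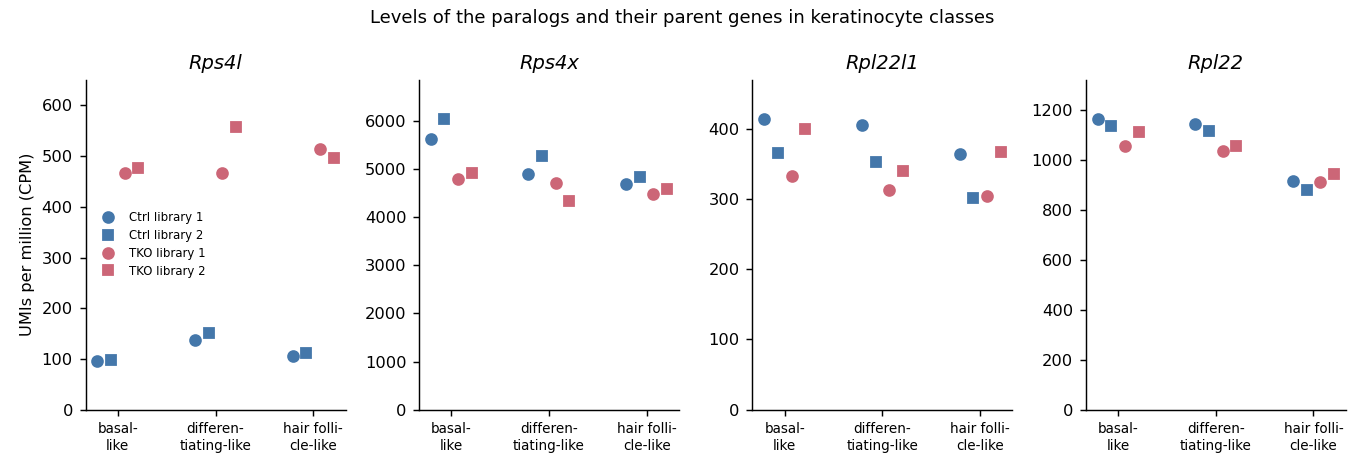
Level of 4 ribosomal protein genes in 3 classes of keratinocyte. The y axis is CPM and starts at 0, each point is 1 library, Ctrl in blue and TKO in red. Rps4l sat between 96.2 and 151 CPM in Ctrl and between 467 and 558 in TKO, whereas the points of Rpl22l1 were mixed between genotypes in basal-like and hair follicle-like cells.

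Read against its parent, Rps4l went from a small to a noticeable part of the pair. In keratinocytes Rps4l made up 2.12% and 2.01% of the summed UMIs of Rps4l and Rps4x in Ctrl, and 9.22% and 9.71% in TKO. The exact (Clopper-Pearson) 95% intervals, which cover counting error only, were 2.07 to 2.17, 1.96 to 2.06, 9.11 to 9.33 and 9.60 to 9.82%. Without any cell filter or clustering the shares were 2.17, 2.06, 8.67 and 9.12%. This share does not depend on how libraries are scaled to each other. Rps4x remained the larger part of the pair in every class and library.

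The share differed between classes within Ctrl and rose in each in TKO. In basal-like cells it was 1.68 and 1.61% in Ctrl and 8.90 and 8.85% in TKO. In differentiating-like cells it was 2.75 and 2.77% in Ctrl and 9.01 and 11.4% in TKO. In hair follicle-like cells it was 2.23 and 2.27% in Ctrl and 10.3 and 9.79% in TKO. Across the finer clusters with at least 20 cells in a library, 34 Ctrl values ran from 1.16 to 3.32% (median 1.85) and 35 TKO values from 4.84 to 12.8% (median 9.08). No cluster of a TKO library was as low as the highest Ctrl cluster.

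In cells that were not keratinocytes the shares of the genotypes lay nearer to each other, a contrast that was not tested. Fibroblast-like cells (106 to 189 per library) had 3.54 and 3.58% Rps4l in the pair in Ctrl and 4.78 and 4.24% in TKO. Immune-like cells (64 to 284 per library) had 3.11 and 3.22% in Ctrl and 4.04 and 4.11% in TKO. The 2 classes had more Rps4l in the pair than keratinocytes did in Ctrl, and less in TKO. In CPM, Rps4l was at 139, 133, 165 and 147 in fibroblast-like cells, in the order Ctrl 1, Ctrl 2, TKO 1, TKO 2. In immune-like cells it was at 98.1, 88.9, 123 and 104 in the same order. In both classes TKO was the higher, and the genotypes did not overlap in share or in CPM. The promoter that drives the Cre is not active in these cell types as far as is known. The summed level of 6 keratins in them was 575, 198, 255 and 149 CPM in fibroblast-like and 1494, 730, 105 and 136 CPM in immune-like cells, against 13850 to 26310 CPM in keratinocytes, and whether keratinocyte RNA contributed to the Rps4l counts there was not tested.

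**Figure D2:**
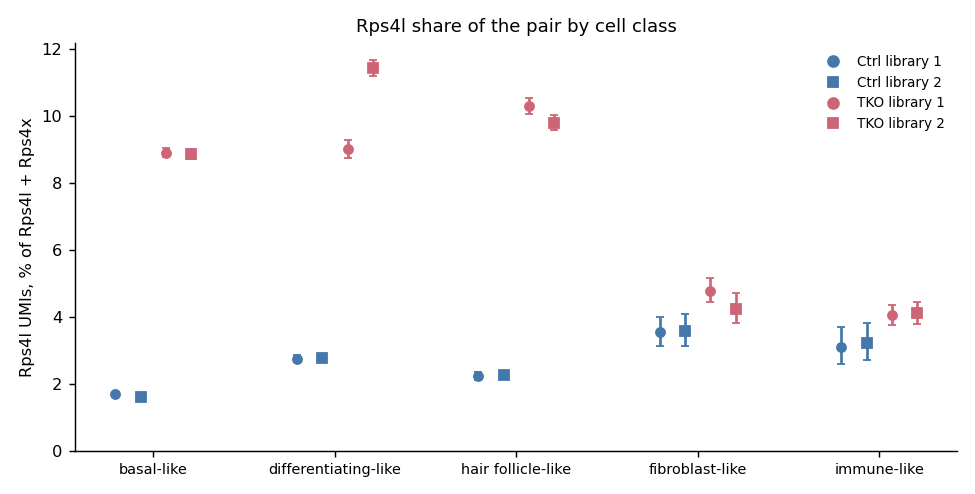
Rps4l as a percent of the summed UMIs of Rps4l and Rps4x, by cell class. Each point is 1 library, bars are exact 95% intervals of the share that cover counting error only, and the y axis starts at 0. TKO points of the 3 keratinocyte classes lie between 8.85 and 11.4%, and those of fibroblast-like and immune-like cells between 4.04 and 4.78%.

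The higher counts were spread over the TKO keratinocytes and not held by a few. Since TKO cells were deeper, each cell was thinned to 10000 UMIs, which left out 222 and 263 Ctrl and 81 and 67 TKO cells. Rps4l then had a mean of 1.08 and 1.11 UMIs per cell in Ctrl and 4.59 and 4.90 in TKO. At least 1 Rps4l UMI was found in 55.1 and 57.9% of Ctrl cells and in 92.3 and 94.4% of TKO cells. At least 5 were found in 2.74 and 2.11% of Ctrl cells and in 45.6 and 47.6% of TKO cells. Thinned to 5000 UMIs, the shares with a UMI were 36.6, 38.9, 79.3 and 82.1%, and unthinned they were 70.6, 69.4, 94.8 and 96.6%. No class of cells lacked Rps4l, so there was no cell type in which to read its background from free RNA.

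**Figure D3:**
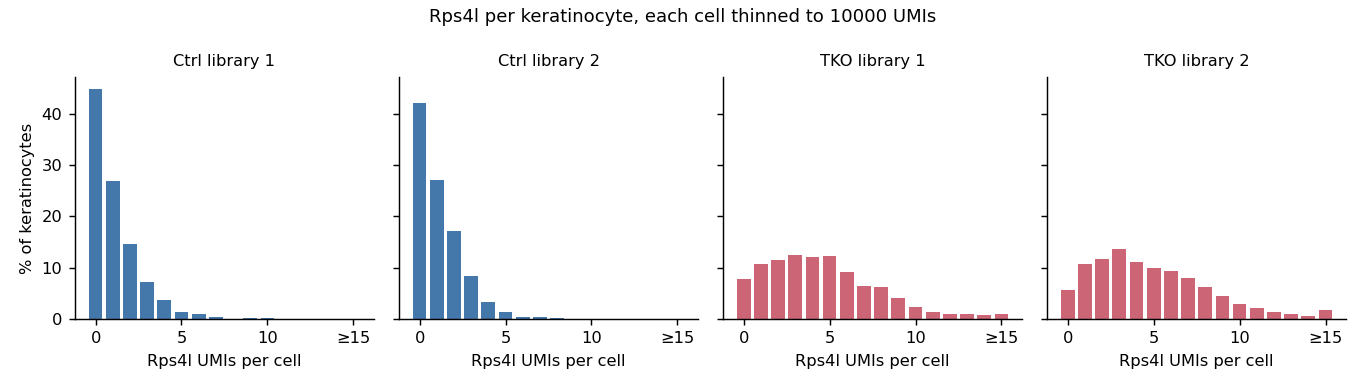
Rps4l UMIs per keratinocyte after thinning to 10000 UMIs, 1 panel per library. The x axis is the UMI count per cell, with 15 or more in the last bar, and the y axis is the percent of keratinocytes in that library. The tallest bar was at 0 UMIs in Ctrl (44.9 and 42.1% of cells) and at 3 UMIs in TKO (12.5 and 13.6%).

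TKO cells were then read by 6 other genes that an earlier look at these libraries had found strongly raised (Npffr1, Gm11884, Col28a1, 1700030N03Rik, Gm42653 and Gria3). Of the thinned TKO cells, 361 (24.3%) and 468 (27.3%) had no UMI of any of the 6, against 97.9 and 98.4% of Ctrl cells. TKO cells with none of them had a mean of 2.92 (SD 3.23 over cells) and 3.86 (SD 3.30) Rps4l UMIs. TKO cells with at least 1 had 5.13 (SD 3.31) and 5.29 (SD 3.71). Both kinds of TKO cell lay above the Ctrl means of 1.09 and 1.11 in cells without the 6 genes. Rps4x was at 49.8 against 47.2 UMIs in TKO 1 and 47.5 against 47.2 in TKO 2. Whether TKO cells with none of the 6 genes kept the floxed alleles was not tested.

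Differences between classes inside 1 genotype were not used in choosing the genes and were tested. In Ctrl, Rps4l was higher in differentiating-like than in basal-like cells (log2 difference 0.85, SE 0.0872, adjusted p = 4.81e-05, edgeR's quasi-likelihood test over the 12 sums of library and class). Without the TMM scaling factors the difference was 0.56 (adjusted p = 0.000335). In TKO it was 0.28 (SE 0.0851, adjusted p = 0.0234), and 0.12 (adjusted p = 0.241) without those factors. The TKO call was also lost without TKO 2 (0.12, adjusted p = 0.336) and without either Ctrl library (0.27, adjusted p = 0.0682 and 0.0666). Hair follicle-like and basal-like cells did not pass, with differences of 0.03 in Ctrl (SE 0.0872, adjusted p = 0.856) and -0.03 in TKO (SE 0.0849, adjusted p = 0.843). The direction of the last of these turned with the scaling, to 0.10. TMM moved the median of all genes in the differentiating-like comparison by 0.22 in Ctrl and 0.13 in TKO, and in the hair follicle-like comparison by -0.12 in both, so values there are relative to that choice.

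Of the 4 members fitted, 3 (Rps4l, Rpl22 and Rpl22l1) were higher in differentiating-like than basal-like cells in Ctrl, where 30% of all genes were. In TKO 1 of these 4 (Rps4l) was, where 25.4% of all genes were. Rpl22 differed by 0.26 in Ctrl (SE 0.0454, adjusted p = 0.00112) and Rpl22l1 by 0.24 (SE 0.0567, adjusted p = 0.00513), but without TMM factors the differences turned to -0.03 and -0.04. Without Ctrl 1 the adjusted p-values were 0.092 and 0.2, and without Ctrl 2 that of Rpl22l1 was 0.0549. Rps4x differed by 0.09 (SE 0.0403, adjusted p = 0.0877) and turned to -0.20 (adjusted p = 0.00837) without them. Of the 4, then, Rps4l was the one whose differentiating-like level in Ctrl passed the test in the same direction on both scales.

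In hair follicle-like cells 3 of the 4 (Rps4x, Rpl22 and Rpl22l1) were lower than in basal-like cells of Ctrl, where 12.2% of all genes were. Rps4x fell by 0.43 on the log2 scale (SE 0.0404, adjusted p = 0.000126), from 5617 and 6031 CPM to 4681 and 4839 CPM. Rpl22 fell by 0.50 (SE 0.0456, adjusted p = 0.000111) and Rpl22l1 by 0.37 (SE 0.0568, adjusted p = 0.00158). In TKO the same 3 members were lower, where 13.0% of all genes were, by 0.23 (adjusted p = 0.0041), 0.35 (adjusted p = 0.000865) and 0.25 (adjusted p = 0.0121) in that order. Each of these 6 differences kept its direction without TMM factors, though those of Rps4x and Rpl22l1 in TKO then gave adjusted p-values of 0.205 and 0.195. The Ctrl call of Rpl22l1 was lost without Ctrl 2 (adjusted p = 0.0843), the TKO call of Rps4x without TKO 2 (adjusted p = 0.0516), and the TKO call of Rpl22l1 without any 1 library (adjusted p = 0.0674 to 0.106).

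Such class differences were also seen among the other ribosomal protein genes. In Ctrl, 22 of 32 small and 37 of 47 large subunit genes were higher in differentiating-like than basal-like cells, where 30% of all genes were. Rps4x and Rpl22 are counted in these lists, and the median log2 differences were 0.15 and 0.21. Without TMM factors 5 were higher and 34 lower. On CPM alone the median log2 difference over all genes was -0.25 there, so nothing is read from the 5 and 34. In hair follicle-like cells of Ctrl, 32 of 32 and 47 of 47 were lower than in basal-like cells, where 12.2% of all genes were. The medians were -0.41 and -0.45, beside -0.00 over all genes.

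Rps4x, the parent of Rps4l, was slightly lower in TKO. Its level in keratinocytes was 5172 and 5544 CPM in Ctrl and 4686 and 4672 in TKO (log2 change -0.22, SE 0.10). The genotypes did not overlap in keratinocytes as a whole. The log2 change was -0.26 in basal-like, -0.25 in differentiating-like and -0.02 in hair follicle-like cells, and it was negative in each class without TMM factors too (-0.26, -0.17 and -0.07). In keratinocytes the mean of Rps4x went from 5358 to 4679 CPM and that of Rps4l from 113 to 489 CPM, so the summed level of the pair was not raised. Rps4x UMIs fell from 350178 and 315741 to 246356 and 251997, from fewer keratinocytes in TKO.

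Rpl22 and Rpl22l1 encode 2 forms of the same large subunit protein. Rpl22 lies on chromosome 4 (chr4:152410150-152418542, plus strand) and Rpl22l1 on chromosome 3 (chr3:28859585-28861573, plus strand). Both have 4 exons, and 70.8% of their aligned coding bases were identical, fewer than between Rps4l and Rps4x. Rpl22 was at 1105 and 1064 CPM in Ctrl keratinocytes and 1019 and 1057 in TKO (log2 change -0.08, SE 0.102). Rpl22l1 was at 400 and 345 CPM in Ctrl and 319 and 376 in TKO (log2 change -0.12, SE 0.145). The genotypes of Rpl22l1 overlapped, with Ctrl 1 highest and TKO 1 lowest.

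The share of Rpl22l1 in its pair overlapped between genotypes in keratinocytes. It made up 26.6 and 24.5% of the summed UMIs of Rpl22l1 and Rpl22 in Ctrl and 23.9 and 26.2% in TKO. The difference of the means, -0.498 percentage points, was smaller than the SD between libraries of either genotype (1.48 and 1.68). In fibroblast-like cells the share was 31.0% in both genotypes (SD 0.190 in Ctrl and 2.93 in TKO). In immune-like cells it was 22.8 ± 1.83% in Ctrl and 27.9 ± 1.27% in TKO, and there the genotypes did not overlap. Among the finer keratinocyte clusters the share ran from 19.1 to 31.1% in Ctrl and from 16.2 to 30% in TKO. At 10000 UMIs per cell 95.3, 95.5, 92.3 and 94.6% of keratinocytes had an Rpl22l1 UMI. How much of this came from free RNA was not tested.

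Rpl39l was close to absent from keratinocytes of either genotype. It lies on chromosome 16 (chr16:9949671-9992780, plus strand) and has 3 exons. Its coding sequence of 153 bases shares 83.7% of the aligned bases with that of Rpl39 when gaps are left out. Over all 237 columns, of which 84 are gaps, the identity was 54.0%. Over all keratinocytes, 0 and 4 UMIs were counted in Ctrl and 8 and 0 in TKO, too few for a fit. A count of 0 among 67707139 and 53933604 UMIs allows up to 3 UMIs per library. As a share of Rpl39l and Rpl39 UMIs the exact 95% upper bounds were 0.00393, 0.0129, 0.0287 and 0.00599%. Whether its level differed between genotypes was not detectable at this depth.

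The Rpl39l UMIs of these libraries came mainly from fibroblast-like cells. There 155 and 56 UMIs were counted in Ctrl and 141 and 124 in TKO, which were 6.93, 3.04, 3.90 and 5.27% of the pair with Rpl39. Thinned to 5000 UMIs per cell, an Rpl39l UMI was found in 31.8, 15.2, 14.3 and 22% of fibroblast-like cells. In immune-like cells it was found in 1.56, 3.13, 2.82 and 3.24%, and in keratinocytes in 0, 0.0683, 0.0641 and 0%. Median depths before thinning were 13117 to 18147 UMIs in fibroblast-like and 17376.5 to 30073 UMIs in keratinocytes, so the class with the higher share was the shallower. The genotypes of the fibroblast-like share overlapped, and Ctrl 1 was the highest of the 4 libraries.

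Rpl39, the parent on the X chromosome (chrX:36345092-36349130, minus strand), was at 1386 and 1398 CPM in Ctrl keratinocytes and 1046 and 1142 in TKO. The log2 change of -0.37 did not pass (SE 0.109, adjusted p = 0.116). In basal-like cells, at 1465 and 1488 against 1053 and 1146 CPM, it fell by 0.42 on the log2 scale (SE 0.105, adjusted p = 0.0499), a call that was lost without Ctrl 1, Ctrl 2 or TKO 1 (adjusted p = 0.173, 0.187 and 0.159). In differentiating-like and hair follicle-like cells the changes were -0.36 (adjusted p = 0.188) and -0.18 (adjusted p = 0.307).

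Of 9 other ribosomal protein paralogs, 7 had enough UMIs and 1 passed the test in keratinocytes, where 6.09% of all genes did. In basal-like cells 2 of the 7 passed (11.8% of all genes), in differentiating-like cells 0 (1.35%) and in hair follicle-like cells 1 (12.6%). Rps27l, a paralog of the small subunit gene Rps27 with 76.2% identical coding bases that is known as a target of p53, rose from 231 and 201 CPM to 378 and 360 CPM (log2 change 0.75, SE 0.112, adjusted p = 0.0258). Without Ctrl 2 the adjusted p was 0.0855. It rose by 0.86 in basal-like (adjusted p = 0.00488) and 0.87 in hair follicle-like cells (adjusted p = 0.00927, and 0.0582 or 0.0925 without Ctrl 1 or Ctrl 2), and was at 0.48 in differentiating-like cells (adjusted p = 0.131). Rps27rt was at -0.55 in keratinocytes (adjusted p = 0.0699) and fell by 0.60 in basal-like cells (adjusted p = 0.0338), which was lost without Ctrl 1, Ctrl 2 or TKO 1 (adjusted p = 0.0875, 0.2 and 0.07). Rpl36al, Rpl7l1 and Rpl37rt stood at -0.02, 0.21 and -0.31 with adjusted p-values of 0.92, 0.249 and 0.165. Rpl3l and Rpl10l were not fitted for lack of UMIs.

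The copies of Rps3a1 set 1 library apart. Rps3a3, a transcribed processed pseudogene (chr13:108807137-108807931, plus strand), was at 2232 CPM in Ctrl 1, 0.176 in Ctrl 2, 1874 in TKO 1 and 1876 in TKO 2. Its parent Rps3a1 was at 3204, 6086, 2853 and 2796 CPM in the same order, highest where Rps3a3 was lowest. Their sum was 5436, 6087, 4727 and 4672 CPM. Rps3a2 was at 113, 31.2, 52.1 and 63.1 CPM. The fitted changes of Rps3a3 (0.71, adjusted p = 0.884) and Rps3a2 (-0.35, adjusted p = 0.752) thus rest on 1 Ctrl library each and carry no direction.

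Most other genes of the ribosome had a small negative change in keratinocytes. None of 31 small subunit genes other than Rps4x passed edgeR's test in keratinocytes, and 28 had a negative log2 change (median -0.21, beside -0.02 over all genes). Of 46 large subunit genes other than Rpl22, 38 had a negative log2 change, 2 fell and 0 rose (median -0.14), where 2.09% of all genes fell and 4.01% rose. Rpl26, 1 of these, fell by 0.78 (SE 0.10, adjusted p = 0.0179), with an adjusted p of 0.0739 without Ctrl 1. Rps4l, at 2.10, was above every other ribosomal protein gene in these lists except Rpl29. Rpl29 was at 19.8, 19.8, 898 and 13.6 CPM in Ctrl 1, Ctrl 2, TKO 1 and TKO 2, so its fitted change of 4.47 came from 1 library (adjusted p = 0.18).

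Within classes, 2 small subunit and 4 large subunit genes fell in basal-like cells, 0 and 1 in differentiating-like and 0 and 2 in hair follicle-like cells. Of the 6 in basal-like cells, Rps26, Rps27, Rplp0 and Rpl39 lost the call without Ctrl 1 and without Ctrl 2. Rps2 rose by 0.47 in hair follicle-like cells, the 1 small subunit gene that did (adjusted p = 0.0389), and the call was lost without Ctrl 1 or Ctrl 2 (adjusted p = 0.165 and 0.201). Over all genes 4.27, 0.348 and 5.47% fell in these classes. Directions were mixed in hair follicle-like cells, where 22 of 31 small subunit genes had a negative log2 change (median -0.05) and 30 of 46 large subunit genes a positive one (median 0.03). The test of a genotype difference that differs between classes called 2.38% of all genes for differentiating-like against basal-like cells, 1 of 31 small subunit genes (Rps2), 0 of 46 large subunit genes and 1 of 7 paralogs (Rpl36al). Neither call was made without Ctrl 1, Ctrl 2 or TKO 1, or without TMM factors. For hair follicle-like against basal-like cells it called 0.612% of all genes and none of these.

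Genes for ribosome assembly were among those that rose. Of 34 ribosome biogenesis genes, 8 rose and 0 fell in keratinocytes, where 4.01% of all genes rose and 2.09% fell, with a median log2 change of 0.38. Mrto4, which acts in assembly of the large subunit, went from 74.2 and 73.0 CPM to 123 and 114 CPM (log2 change 0.66, SE 0.0881, adjusted p = 0.019). Utp20 and Rrp9, of the small subunit processome, rose by 0.65 (adjusted p = 0.0258) and 0.61 (adjusted p = 0.0414). The smallest of the 8 were Gar1 at 0.44 (adjusted p = 0.0456), Nolc1 at 0.47 (adjusted p = 0.0437) and Npm1 at 0.53 (adjusted p = 0.0449). All 8 calls were lost without Ctrl 1 (adjusted p = 0.084 to 0.207) and without Ctrl 2 (adjusted p = 0.0856 to 0.227). In basal-like cells 21 of the 34 rose, where 7.5% of all genes rose. In hair follicle-like cells 20 rose, where 7.08% of all genes rose, and in differentiating-like cells 0 of them rose, where 1.0% of all genes rose. Over the subunit and biogenesis lists, raised calls fell from 21 to 4 without Ctrl 1 and to 7 without Ctrl 2 in basal-like cells, and from 21 to 1 and 0 in hair follicle-like cells. By the test of the difference between classes, 9 of the 34 had a lower genotype difference in differentiating-like than in basal-like cells (median of the 34 -0.46), beside 2.38% of all genes called in either direction, and 0 of the 34 had a different one in hair follicle-like cells. None of the 9 calls was made without Ctrl 1, Ctrl 2 or TKO 1, or without TMM factors.

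**Figure D4:**
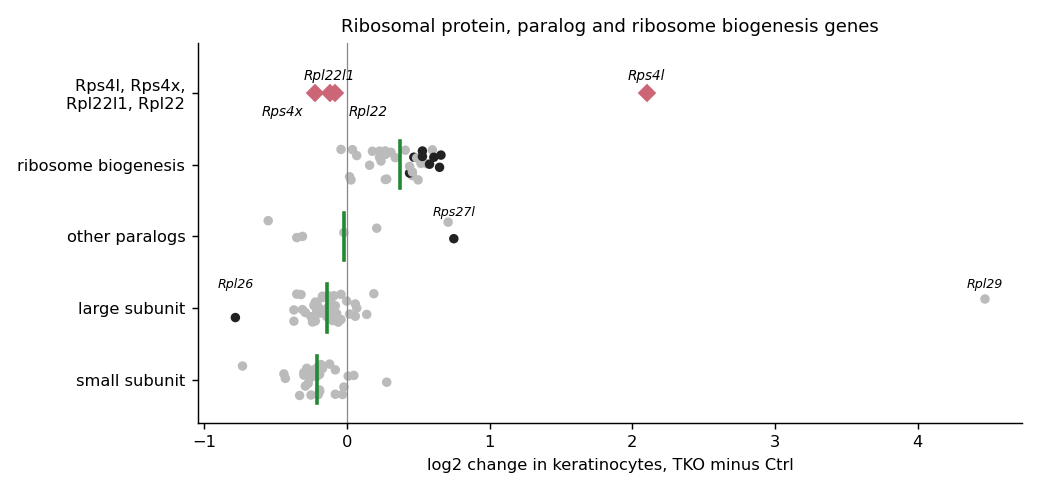
Log2 change in keratinocytes, TKO minus Ctrl, for the 4 members with enough UMIs (red diamonds) and for genes of 4 lists (dots). Black dots passed an adjusted p of 0.05, grey dots did not, and green bars mark the median of each list. Rps4l lies at 2.10 and the medians lie at -0.21 (small subunit), -0.14 (large subunit), -0.02 (other paralogs) and 0.38 (ribosome biogenesis), with Rpl29 at 4.47 in 1 TKO library.

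Among the genes around Rps4l, its host gene Tmtc1 fell. Of 9 protein-coding or long noncoding genes within 250 kb of its ends, 4 had enough UMIs to be fitted, and 1 of these (Far2os1) only through the TKO libraries. Of the other 3, 1 fell and 0 rose, where 2.09% of all genes fell and 4.01% rose. Tmtc1, whose intron holds Rps4l and which encodes a membrane protein that adds mannose to cadherins, was at 34.5 and 39.1 CPM in Ctrl keratinocytes and 7.95 and 5.92 CPM in TKO. It fell by 2.43 on the log2 scale (SE 0.167, adjusted p = 0.00426), so host gene and inner gene moved in opposite directions. The call held under each alternative that was run in keratinocytes, at -2.25 to -2.62. Tmtc1 also fell in basal-like (by 2.67, adjusted p = 0.000863), differentiating-like (by 2.07, adjusted p = 0.0352) and hair follicle-like cells (by 2.16, adjusted p = 0.000859). In fibroblast-like cells Tmtc1 was at 41.8 and 43.3 CPM in Ctrl and 17.8 and 35.0 in TKO, from 67 to 81 UMIs per library.

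Ergic2, which is 142 kb away, was at 77.1, 78.4, 89.9 and 85.0 CPM (log2 change 0.15, adjusted p = 0.354). Far2, at 171 kb, was at 0.517, 0.720, 0.571 and 0.797 CPM (log2 change 0.14, adjusted p = 0.859). Far2os1, a noncoding gene at 227 kb, had 0 UMIs in either Ctrl library and 12 in each TKO library. Since it passed the filter on low counts through the group where it was high, its test is not used. Against the floor of 3 UMIs per library it was at least 4.28-fold higher in TKO.

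**Figure D5:**
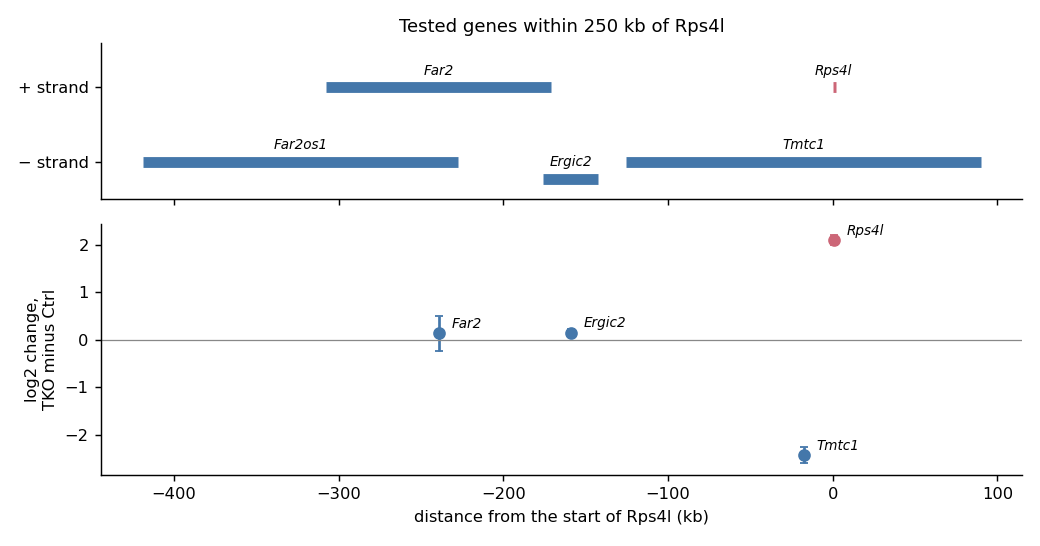
Genes within 250 kb of Rps4l that were fitted in keratinocytes. The upper panel shows each gene by strand and by distance from the start of Rps4l in kb, and the lower panel the log2 change, TKO minus Ctrl, with bars of 1 SE at the middle of each gene. Rps4l is at 2.10, Tmtc1 at -2.43, and Far2 and Ergic2 are at 0.14 and 0.15, while Far2os1 has no point below because Ctrl held 0 of its UMIs.

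Around Rpl39l, 7 of 11 listed neighbours were fitted and 1 rose, where 4.01% of all genes rose. Nubp1, which takes part in making iron-sulfur proteins, went from 33.2 and 34.4 CPM to 58.7 and 55.3 CPM (log2 change 0.73, SE 0.0912, adjusted p = 0.0172), a call lost without Ctrl 1 or Ctrl 2 (adjusted p = 0.0841 and 0.0609). Around Rpl22l1, 4 of 11 were fitted and 2 rose, against the same share. Eif5a2, a paralog of the translation factor gene Eif5a, went from 1.39 and 1.44 CPM to 3.63 and 3.34 CPM (log2 change 1.28, SE 0.217, adjusted p = 0.034). That call was lost without Ctrl 1, Ctrl 2 or TKO 1 (adjusted p = 0.167, 0.133 and 0.0617). The noncoding 1700112D23Rik was at 0.281, 0.193, 1.26 and 0.964 CPM (log2 change 2.18, SE 0.370, adjusted p = 0.034), and lost its call without the same 3 libraries (adjusted p = 0.108, 0.133 and 0.0773). The remaining fitted neighbours did not pass, among them Emp2, Tekt5, Atf7ip2 and Tvp23a near Rpl39l and Tnik near Rpl22l1, with adjusted p-values of 0.224, 0.364, 0.986, 0.39 and 0.426. Gm49455, Gm1600 and Gm32950 were at 0.878, 0.876 and 0.696.

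Genes with a pattern like that of each member were ranked by Pearson's r of log2(CPM + 1) over the 12 sums of library and class, among 10752 genes with a mean of at least 5 CPM. The 12 points share libraries, depth and genotype, so r is a description. The most similar to Rps4l were 1700030C10Rik (0.988), Gm11884 (0.980), ENSMUSG00000120786 (0.977), Gm13274 (0.975) and Tnxa (0.974), of which none is a ribosomal protein gene. The genes most like Rps4x included Rpl7 (0.976), Rps3 (0.963), Rpl10a-ps1 (0.958) and Gm4149 (0.938). Rpl22 was most like Rpl23a (0.953), Rpl12 (0.941), Thap12 (0.939), Atp5l (0.937) and Rpl35 (0.936). Rpl22l1 was most like mt-Cytb (0.931), mt-Nd3 (0.907), Rpl23 (0.901), mt-Nd2 (0.892) and Rpl32 (0.888). Thus 3 of the 5 closest genes were named for ribosomal proteins for Rpl22 and 2 for Rpl22l1. Rpl39l was below the minimum level and was not ranked.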

How the data were processed

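The authors deposited 1 filtered 10x Genomics matrix of raw UMI counts per library, made from 3′ v3 libraries. The matrix headers name Cell Ranger 7.1.0, whereas the methods of the study name another version. The build was GRCm39, and intron counting is not given in the sources used here. A gene and its overlapping neighbours on the same strand may therefore share intronic reads.

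Cells with at least 2000 genes and at most 10% mitochondrial UMIs were kept (11221 of 19789), and 457 likely doublets were removed by Scrublet score, at 0.8% per 1000 barcodes. Clusters came from the Leiden method (scanpy 1.11.5, leidenalg 0.10.2) on 30 components aligned between libraries, without ribosomal protein genes, mitochondrial genes or genes that differed between genotypes. Classes were named from marker lists and keratinocyte clusters had a keratin sum of at least 1000 CPM. UMIs were summed per library, or per library and class, and CPM scales these sums to their totals.

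edgeR 4.0.16 in R 4.3.3 (quasi-likelihood test, TMM factors, filterByExpr) gave log2 changes with SEs. P-values were adjusted over all genes tested by Benjamini-Hochberg, with 0.05 as the threshold. Genotypes were compared over 4 library sums. Classes were compared over 12 sums with library as a term. The code was tested on simulated data. Alternatives were DESeq2 1.42.0, no expression filter, other cell filters, doublets kept, a Leiden resolution of 0.5, unaligned components, thinning to 5000 UMIs per cell, all barcodes, each library left out and the replicate number as a block. Scaling without TMM factors, a crossed block and all alternatives for the class difference of biogenesis genes were chosen after seeing the data.

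The members and gene lists were chosen with earlier results of these data known. Named genes were the members, Rpl39, all listed paralogs, up to 3 genes at either end of each list among those that passed, fitted neighbours within 250 kb, the 5 closest genes by pattern, and list genes whose call or level rested on 1 library. Each library came from 1 embryo, so the spread is between 2 embryos per genotype. Coordinates are those of GENCODE vM39 on GRCm39, and 744 of 56980 gene IDs had no position there. A few genes that met this rule are not reported here and are not drawn.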

Additional observations from a re-analysis of the deposited data

Results flagged for a closer look

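Among the ribosomal protein genes outside the 5, 2 had a genotype difference that differed between classes by a test of the difference itself. The test used the interaction terms of edgeR's quasi-likelihood fit over 12 sums. These were 1 of 31 small subunit genes, 0 of 46 large subunit genes and 1 of 7 paralogs. Between differentiating-like and basal-like cells the test called 2.38% of all genes, so nothing is read from that count. Rps2, of the small subunit, was lower by 0.33 on the log2 scale in the TKO minus Ctrl difference of differentiating-like cells than in that of basal-like cells (-0.33, SE 0.0573, adjusted p = 0.0315). For Rpl36al, a paralog of the large subunit gene Rpl36a, the same quantity was -0.46 (SE 0.0917, adjusted p = 0.0447). Both calls were lost without TMM factors. Neither passed when Ctrl 1, Ctrl 2 or TKO 1 was left out, and 1 gene passed without TKO 2. With 2 libraries per genotype no single library was tested for standing apart from its group. Of 34 ribosome biogenesis genes, 9 had a lower genotype difference in differentiating-like than in basal-like cells by the same test, and 0 of these calls were made without Ctrl 1, Ctrl 2 or TKO 1.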

How the results depend on the processing

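Between genotypes, Rps4l kept its direction under every alternative run. Its log2 change was 1.94 over all deposited barcodes (2.10 in keratinocytes), 2.23 when thinned in basal-like cells, and 2.14, 2.10 and 2.14 at Leiden resolution 0.5, thinned and with uncorrected components in hair follicle-like cells. Leaving out 1 library gave 2.04 to 2.17 in keratinocytes, 2.24 to 2.33, 1.57 to 1.91 and 2.23 to 2.27 in basal-like, differentiating-like and hair follicle-like cells. The share of cells with an Rps4l UMI was 43.0 percentage points higher in TKO at 5000 UMIs, 36.9 at 10000 and 25.7 unthinned.

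Counts of subunit and biogenesis genes (paralogs not included) called between genotypes were less stable, and the cause was not tested. In keratinocytes 10 became 20 with DESeq2, 3 over all barcodes, 4 without the expression filter, 5 thinned and 1 to 6 without 1 library (1 without Ctrl 1, 2 without Ctrl 2). In basal-like cells 27 became 7 to 26 without 1 library. In differentiating-like cells 1 became 3 with DESeq2, 2 with doublets kept, 15 without the filter, 0 at Leiden 0.5 and 0 to 2 without 1 library. In hair follicle-like cells 23 became 14 at 3000 genes, 9 without the filter, 11 at Leiden 0.5, 9 thinned, 5 uncorrected and 1 to 26 without 1 library.

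Same-numbered replicates shared only a number (r = -0.41 between their differences over 10725 genes). With the replicate block the counts were 2, 20, 0 and 21 in the order above, and with the crossed block 26 in keratinocytes, 53 in basal-like and 5 in differentiating-like cells.

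Of ribosomal protein genes differing between differentiating-like and basal-like cells, 59 in Ctrl became 39 without TMM factors, 36 without the filter, 17 thinned and 11 to 56 without 1 library. The 39 in TKO became 15, 10 and 10 under those settings, 61 uncorrected and 6 to 24. For hair follicle-like cells of TKO 77 became 23 without TMM factors and 36 to 63 without 1 library, and in Ctrl 69 to 79. Interaction calls (2) became 1 with DESeq2, 8 with doublets kept, 8 without the filter, 5 uncorrected, 0 without TMM factors, at Leiden 0.5 or thinned, and 0 to 1 without 1 library. For biogenesis genes 9 interaction calls became 5 with doublets kept or thinned, 20 without the filter, 0 without TMM factors and 0 to 8 without 1 library.

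Directions turned for small values and where 1 library decides. Leaving out 1 library, Rps3a2 ran from -1.01 to 0.89, -1.01 to 0.81, -1.07 to 1.0 and -0.89 to 1.01 (keratinocytes, then classes as above) with the highest value without Ctrl 1, and Rps3a3 from -0.29 to 13.37, -0.32 to 13.15, -0.34 to 12.64 and -0.13 to 14.63 with the lowest without Ctrl 2. Rps3a2 in hair follicle-like cells was 0.04 with the replicate block and 0.03 crossed. Without 1 library, Rpl36al in keratinocytes ran from -0.11 to 0.08 (0.00 without TKO 1) and Rpl37rt in hair follicle-like cells from -0.17 to 0.00 (0.00 when thinned). Rpl7l1 in differentiating-like cells was 0.03 with doublets, 0.06 without TMM factors, 0.02 uncorrected, and -0.10 to 0.05 without 1 library (0.02 without TKO 1). For differentiating-like minus basal-like cells in Ctrl, Rps4x was -0.20 without TMM factors and -0.02 thinned, and Rpl22l1, Rpl22 and Rpl39 were -0.04, -0.03 and -0.04 without them. In TKO, Rps4x was -0.10, -0.05 and -0.05 (no TMM factors, no filter, thinned), Rpl22 -0.05 and -0.07 (no TMM factors, thinned), and Rpl22l1 0.02, 0.11 and 0.03 (DESeq2, uncorrected, without TKO 2, and -0.05 to 0.03 over all libraries left out). For hair follicle-like minus basal-like cells, Rps4l was -0.01 in Ctrl without the filter or at Leiden 0.5. In TKO it was 0.02 with DESeq2, 0.01 with doublets, 0.10 without TMM factors, and -0.08 to 0.01 without 1 library (0.00 without Ctrl 1 or Ctrl 2). Over genes outside the 5 and all alternatives, 1014 results kept direction and call, 304 lost the call in the same direction, 17 gained one and 19 turned direction.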
